A study of Mus musculus with 20 samples.

Results

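Described here are 10 rows of mouse RNA-seq count tables: rows that bear the symbols of lymphoid genes, and rows of other genes that lie opposite or beside lymphoid genes on the chromosome. They are Cxcr5 and Bcl9l, which lie opposite each other, Foxp3 and Ccdc22, also opposite each other, Fcer2a, Ms4a1, Ms4a6c, Palm3 (opposite Il27ra), Tctn1 (opposite Hvcn1) and Prr33 (beside Lsp1). They were taken by name, 10 of 46329 gene rows, and all 10 were among the 7119 rows that passed the count filter. They were chosen by their annotated positions and selected on measured values, above all their levels in 1 library, control tumor 2, and in the tumors of both genotypes. What that library and those comparisons show for these rows is therefore given as a description.

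The study asked what ERBB2 does in the progression of colorectal tumors. Every mouse was C57BL/6J, 100 days old, carried the tumor-predisposing ApcMin allele in heterozygous form and was homozygous for a floxed Erbb2 allele. Erbb2-deficient mice also carried a cre transgene driven by the Vil1 (villin) promoter, which is active in intestinal epithelial cells, and control mice were littermates without cre, so the genotypes differ by the transgene as well as by recombined Erbb2. The 4 groups are Erbb2-deficient tumor, Erbb2-deficient adjacent tissue, control tumor and control adjacent tissue, with 5 libraries in each. Whether equal replicate numbers come from 1 mouse is not stated, and the p-values below reflect variation between libraries, which may be technical in part.

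B and T lymphocytes of the bowel wall lie scattered in the lamina propria and gather in lymphoid follicles, where the receptor CXCR5 draws B cells and follicular helper T cells towards the chemokine CXCL13. CD20, encoded by Ms4a1, and the low-affinity IgE receptor CD23, encoded by Fcer2a, are surface proteins of B cells, and FOXP3 is the transcription factor that defines regulatory T cells. The genes that lie opposite or beside lymphoid genes here have unrelated roles: Bcl9l encodes a coactivator of beta-catenin in Wnt signalling, Ccdc22 a protein of endosomal recycling, Tctn1 a protein of the base of the cilium, and Palm3 a member of the paralemmin family.

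The rows appear to have been counted on the strand opposite to the transcript. ND6 lies on the light strand of the mitochondrial genome, unlike the other mitochondrial protein genes, and its row held 22599 to 199495 counts per library, against 884 to 5698 for each of the other 12 mitochondrial protein rows. Counted so, a row holds reads of the strand opposite to its gene, which may come from another gene there. The strand setting is not given, so a value below is the level of a row, not of the gene it is named after. Libraries held 1071737 to 1944309 counts on genes. In the annotation, Bcl9l and Cxcr5 share 110 exon bases, Ccdc22 and Foxp3 590, Tctn1 and Hvcn1 1574, and Palm3 and Il27ra 2. Prr33 has no shared exon base with Lsp1 and also neighbours Tnnt3, a troponin gene of skeletal muscle. Ms4a6c, a gene of the MS4A family of membrane proteins that is known from myeloid cells, shares 1088 exon bases with the non-coding transcript BE692007.

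Control tumor 2 stood apart from the other 19 libraries. In it 15 of 18 rows of epithelial marker genes were at 0 and their summed level was 18.2 CPM, against 331 to 1106 CPM in the other 4 control tumors. CPM here means the normalized counts of a row scaled to the library's total over the tested rows (CPM). Each result below that rests on this library is given with and without it.

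The excess of control tumor 2 was largest in Ms4a6c and in the rows opposite lymphoid genes, and smaller or not seen in the rows that bear the lymphoid symbols. The Tctn1 row had 8667 CPM (9548 counts) in control tumor 2 and 79.1 to 178 CPM in the other 4 control tumors. The Ms4a6c row had 2993 CPM in control tumor 2 and 2.54 to 19 CPM in the other control tumors. Each of these values is above all other 19 libraries, whose highest levels were 929 CPM for Tctn1 (Erbb2-deficient adjacent 3) and 273 CPM for Ms4a6c (control adjacent 5).

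The Palm3 row was at 1521 CPM in control tumor 2, against 8.28 to 25.7 CPM in the other control tumors. Prr33 is named for a proline-rich protein, but the annotation used here lists it as a long non-coding RNA. The Prr33 row was at 1325 CPM in control tumor 2, against 89 to 145 CPM in the other control tumors. It reached at most 616 CPM in any other library. The Bcl9l row held 501 CPM in control tumor 2 and 6.44 to 16.2 CPM in the other control tumors. These 3 rows thus stood highest in the same library, with Prr33 by the smallest margin, 2.15-fold over the next library.

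The Ccdc22 row, opposite Foxp3, had 158 CPM in control tumor 2 and 0.92 to 25.7 CPM in the other control tumors. In all, 6 of the 10 rows were at least 8-fold above the median of the other 4 control tumors on the CPM + 1 scale, against 217 of 7119 tested rows (3.05%), a contrast that the choice of rows used. Of the 10 rows, 9 were higher in control tumor 2 than in any other library, against 1239 of all tested rows (17.4%), and the exception was Ms4a1.

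The rows named for lymphoid genes had levels in control tumor 2 close to those of their group. Foxp3 had 577 CPM in control tumor 2 and 356 to 569 CPM in the other control tumors. Fcer2a had 479 CPM in control tumor 2 and 283 to 459.8 CPM in the others. Ms4a1 had 3.63 CPM, which is 4 counts, in control tumor 2 and 1.69 to 12.9 CPM in the others, so a difference at that level was not detectable. The Cxcr5 row was higher in that library, at 129 CPM against 30.4 to 95.6 CPM in the other control tumors, a ratio of 2.02 to their median.

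**Figure D1:**
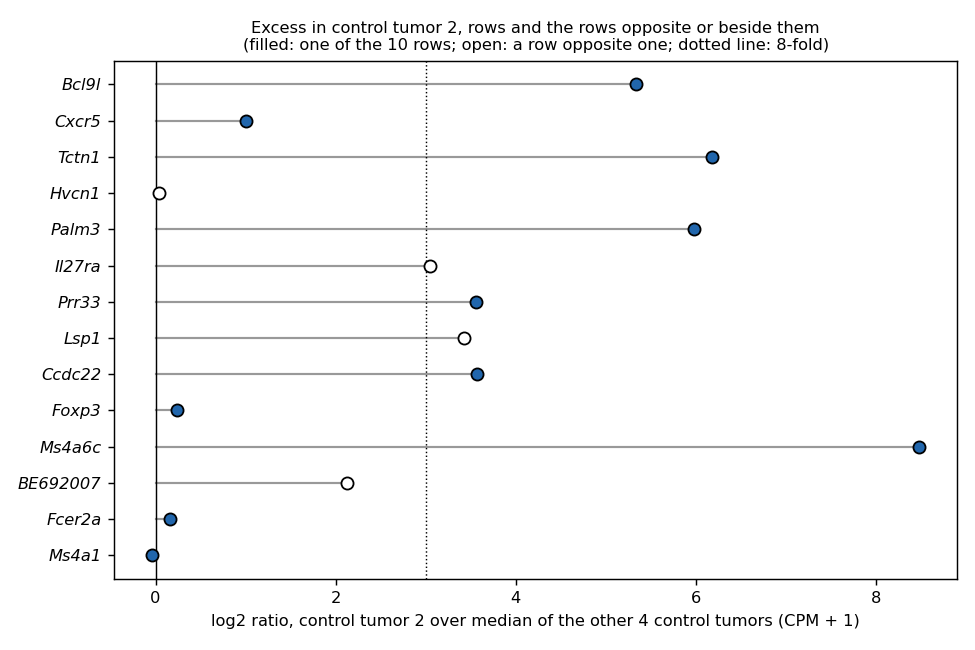
Log2 ratio of control tumor 2 over the median of the other 4 control tumors (CPM + 1) for the 10 rows (filled) and for the rows opposite or beside them (open), with a dotted line at 8-fold. Within the pairs Bcl9l and Cxcr5, Tctn1 and Hvcn1, and Ccdc22 and Foxp3, the row opposite the lymphoid gene lies past the line and the row named for the lymphoid gene does not; the Il27ra point rests on 8 counts in control tumor 2.

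The split was also visible within pairs, as the share of a pair's counts that lay on the row opposite the lymphoid gene. For Cxcr5 and Bcl9l the Bcl9l row held 79.5% in control tumor 2 (95% Wilson interval 76.4% to 82.4%) and 7.43% to 22.1% in the other control tumors. For Hvcn1, a proton channel gene of B cells and phagocytes, and Tctn1, the Tctn1 row held 96.3% in control tumor 2 (95.9% to 96.6%) and 25.3% to 34.1% in the other control tumors. For Foxp3 and Ccdc22 the Ccdc22 row held 21.5% in control tumor 2 (18.8% to 24.4%) and 0.258% to 4.32% in the other control tumors. The intervals cover counting error only. The Hvcn1 row itself had 337 CPM in control tumor 2 and 234 to 372 CPM in the other control tumors.

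Palm3 and Prr33 differed from these pairs. The row of Il27ra, which encodes a chain of the interleukin 27 receptor, had 8 counts in control tumor 2, 0 in each of the other 4 control tumors and at most 2 in any of the other 19 libraries, so the Palm3 row held 90.9% or more of the pair's counts everywhere. The row of Lsp1, an actin-binding protein of leukocytes, had 82 counts in control tumor 2 and at most 19 in any other library. Both rows of the Prr33 pair were therefore highest in control tumor 2, and the Prr33 row held 94.7% of the pair there, against 92.9% to 98.1% in the other control tumors.

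Rows opposite or beside other lymphoid genes were looked up to see whether the pattern reached beyond the 10 rows. Of 34 rows opposite or beside 104 lymphoid marker genes, 11 were tested, and 9 of those 11 were at least 8-fold above the median of the other control tumors in control tumor 2, against 3.05% of all tested rows. Of those 9, Bcl9l, Ccdc22, Palm3, Tctn1 and Prr33 had been selected on control tumor 2. Summed over the 34 rows, these 5 included, the level was 16677 CPM in control tumor 2 and 1059.6 to 1566 CPM in the other control tumors. Without the 5 rows already described, 29 rows remained, of which 6 were tested and 4 reached 8-fold. The median ratio of these 6 rows was 15.5, beside 0.867 over all tested rows. Summed over the 29 rows, the level was 4504 CPM in control tumor 2 and 843 to 1176 CPM in the other control tumors.

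The Tesk1 row lies opposite Cd72, a co-receptor of B cells, and had 2443 CPM in control tumor 2 and 40.7 to 120 CPM in the other control tumors. Gm16008, opposite Tnfrsf18 (GITR, a receptor of regulatory T cells), had 236 CPM in control tumor 2 and 8.47 to 29.5 CPM in the other control tumors. Bach2os, opposite Bach2, a transcriptional repressor of B and T cells, had 182 CPM in control tumor 2 and 0.847 to 2.86 CPM in the others. In each of these 3 rows control tumor 2 was above all other 19 libraries.

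The fourth tested row, Tead2 opposite the leukocyte tetraspanin gene Cd37, had 97.1 CPM in control tumor 2 and 0.92 to 7.68 CPM in the other control tumors. The Pou2f1 row, opposite the T cell receptor chain gene Cd247, did not pass the count filter and had 290.5 CPM in control tumor 2 and at most 18.3 CPM elsewhere. The row Rfxank, which lies beside Mef2b and shares exon bases with Nr2c2ap instead, had 815 CPM in control tumor 2 and 743 to 967 CPM in the other control tumors. Smarcb1, beside Derl3, had 65.4 CPM in control tumor 2 and 22.1 to 34.3 CPM in the other control tumors. Rfxank and Smarcb1 were the tested rows that did not reach 8-fold. Counting only rows that share exon bases with a lymphoid gene, 8 of 20 were tested and all 8 reached 8-fold. Of these, Bcl9l, Ccdc22, Palm3 and Tctn1 had been selected on control tumor 2, so their part in the count is a description. The rest were Tesk1, Gm16008, Bach2os and Tead2. Of the 17 tested rows named for lymphoid genes, 1 (Lsp1) reached 8-fold, but 8 were above all other 19 libraries. Summed over all 104 rows named for lymphoid genes, the level was 3749 CPM in control tumor 2 and 2294 to 2989 CPM in the other control tumors. Some rows named for lymphoid genes that did not pass the count filter were also high in that library. Coro1a, which encodes an actin-binding protein of leukocytes, had 74.4 CPM in control tumor 2 and 1.69 to 3.49 CPM in the other control tumors. Icosl and Ccl21a each had 24.5 CPM in control tumor 2 and at most 5.08 and 4.6 CPM in the other control tumors. Others were lower there than in the other control tumors: Sdc1 at 0 CPM (others 12 to 31.4), Tnfrsf18 at 21.8 CPM (40.5 to 79.1) and Tcf7 at 208 CPM (445 to 769). Of the 104 rows, 19 were at 0 in control tumor 2, and 6 were at 0 in every library.

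**Figure D2:**
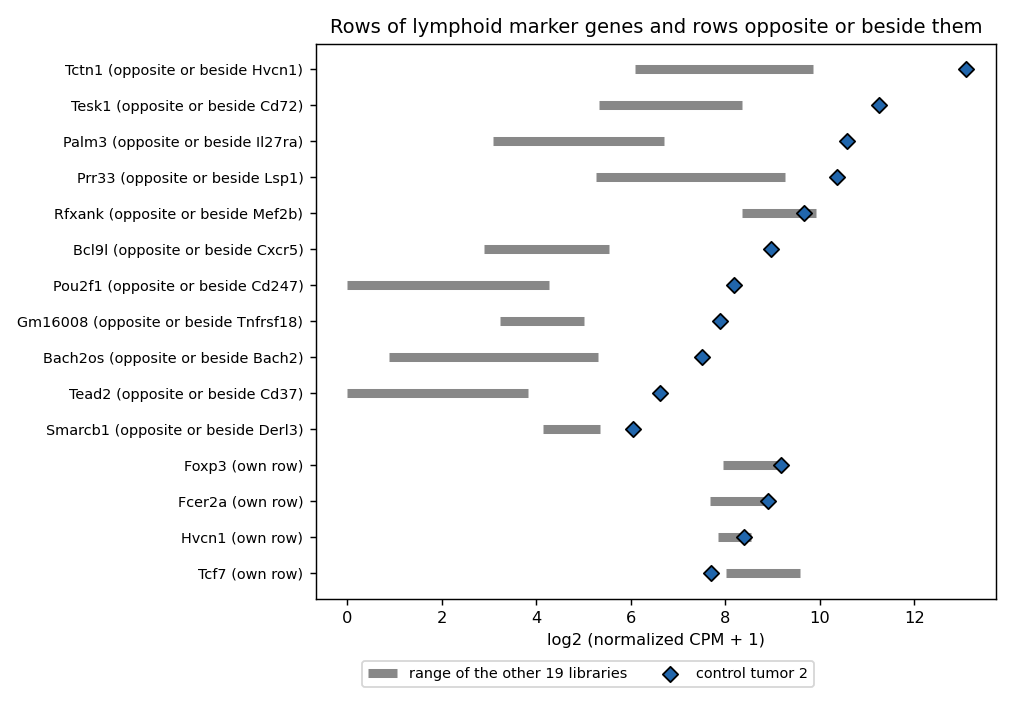
Level of the rows with the highest mean counts opposite or beside lymphoid marker genes, and of the 4 own rows of lymphoid genes with the highest mean counts, as log2 (normalized CPM + 1). Diamonds are control tumor 2 and grey bars span the other 19 libraries; apart from Rfxank, each row drawn that lies opposite or beside a lymphoid gene has its diamond to the right of the bar, and the Tcf7 diamond, at 208 CPM, lies to the left of it.

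Because these rows were high together in the same library, the 250 bases upstream of the start were examined where the promoter table held them. They are RefSeq sequences of build GRCm38.p6, 5′ to 3′ on the strand of the gene, and capitals mark a match to a searched motif. Of the 10 rows, 7 had an entry. Shown are 4 of the rows past 8-fold in control tumor 2 and Cd72, the B cell gene opposite Tesk1: Tctn1 at chr5:122264461-122264710 (minus strand), Palm3 at chr8:84021224-84021473 (plus), Prr33 at chr7:142506772-142507021 (minus), Ms4a6c at chr19:11469118-11469367 (plus) and Cd72 at chr4:43454627-43454876 (minus).
Tctn1: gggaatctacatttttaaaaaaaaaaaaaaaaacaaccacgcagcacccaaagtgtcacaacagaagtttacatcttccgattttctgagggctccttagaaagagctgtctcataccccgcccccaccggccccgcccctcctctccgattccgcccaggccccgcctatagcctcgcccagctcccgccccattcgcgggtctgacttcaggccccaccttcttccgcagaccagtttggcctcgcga
Palm3: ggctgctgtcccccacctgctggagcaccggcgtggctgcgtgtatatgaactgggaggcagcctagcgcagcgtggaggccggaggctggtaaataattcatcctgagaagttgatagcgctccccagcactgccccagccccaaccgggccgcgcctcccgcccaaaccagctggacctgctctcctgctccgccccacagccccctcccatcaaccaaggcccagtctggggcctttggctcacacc
Prr33: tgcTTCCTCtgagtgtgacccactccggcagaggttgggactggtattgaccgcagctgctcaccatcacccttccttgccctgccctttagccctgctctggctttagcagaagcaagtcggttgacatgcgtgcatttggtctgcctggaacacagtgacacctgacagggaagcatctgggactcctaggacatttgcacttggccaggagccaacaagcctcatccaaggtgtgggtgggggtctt
Ms4a6c: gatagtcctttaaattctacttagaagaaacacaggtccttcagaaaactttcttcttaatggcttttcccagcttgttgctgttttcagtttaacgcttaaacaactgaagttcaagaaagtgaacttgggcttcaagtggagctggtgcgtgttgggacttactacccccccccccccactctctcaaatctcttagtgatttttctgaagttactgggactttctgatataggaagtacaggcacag
Cd72: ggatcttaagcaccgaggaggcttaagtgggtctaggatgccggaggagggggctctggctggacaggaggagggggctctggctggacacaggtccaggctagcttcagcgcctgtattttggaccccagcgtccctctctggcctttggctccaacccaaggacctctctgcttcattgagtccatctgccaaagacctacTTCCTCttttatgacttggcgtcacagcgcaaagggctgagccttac
Searched on both strands were the octamer bound by Oct factors (ATGCAAAT) and the PU box (GAGGAA), which did not overlap here. The PU box occurred once in the Prr33 window, starting 247 bases upstream, and once in the Cd72 window, 47 bases upstream, both on the other strand. It occurs in 23.3% of 32851 windows of the same length. The octamer, found in 1.6% of all windows, was in none of the 5 windows shown. The windows of Ccdc22, which was also past 8-fold, and of Foxp3 and Fcer2a are not shown and had 0 matches to either motif. The same held for Trappc5, the neighbour of Fcer2a. Prr33 alone of the 7 rows with an entry thus had a match, and Cd72 is not among the 10 rows. These are matches of letters and nothing more. For Tctn1, Palm3, Prr33 and Ms4a6c the window is that of the gene the row is named after. If the rows were counted on the opposite strand, that window need not be the promoter of the transcript counted.

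Tumors were next compared with adjacent tissue in Erbb2-deficient mice, a comparison that does not contain control tumor 2. The Erbb2-deficient tumors were among the libraries used to choose the rows. Results for the 10 rows here, p-values included, are therefore a description and not independent tests. With all 20 libraries in the fit, edgeR's quasi-likelihood test with Benjamini-Hochberg adjustment called 3 of the 10 rows at an adjusted p under 0.05: Cxcr5 and Fcer2a were higher in tumors and Ms4a1 was lower. Over all tested rows, 929 (13.0%) were called higher and 1030 (14.5%) lower. With control tumor 2 left out of the fit, which changes the shared estimate of the spread, 8 of the 10 rows were called, 2 higher and 6 lower, against 16.9% called higher and 19.3% called lower among the 7516 rows then tested. In bulk tissue, fewer cells of a type and less RNA per cell cannot be told apart.

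The Cxcr5 row rose in tumors of Erbb2-deficient mice. It had 85.4, 78.3, 64.9, 59.5 and 39.6 CPM in Erbb2-deficient tumors, against 34.9, 37.4, 16.7, 30.3 and 29.8 CPM in Erbb2-deficient adjacent tissue. All 5 tumors lay above all 5 adjacent samples. The log2 fold change was 1.13 ± 0.33 (SE), with an edgeR adjusted p of 0.0142 (0.00426 without control tumor 2), and it passed the threshold under all 26 alternatives.

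The row opposite it, Bcl9l, was lower in every Erbb2-deficient tumor than in every adjacent sample. It had 12.1, 8.95, 13.3, 9.68 and 11.5 CPM in Erbb2-deficient tumors, against 26.8, 20.8, 35.7, 13.6 and 16.5 CPM in Erbb2-deficient adjacent tissue. These values rest on 12 to 19 counts per tumor. The log2 fold change was -1.02 ± 0.92, with an edgeR adjusted p of 0.428, and -1.01 ± 0.38 without control tumor 2, with an adjusted p of 0.0454. The Bcl9l row held 10.3% to 22.5% of the pair's counts in the tumors and 31% to 68.2% in adjacent tissue.

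The Fcer2a row had 387, 323, 319.8, 325 and 286 CPM in Erbb2-deficient tumors, against 242, 235, 204, 211 and 265 CPM in Erbb2-deficient adjacent tissue. It rose by 0.50 ± 0.17 on the log2 scale without overlap between the groups, with an edgeR adjusted p of 0.0286 (0.0154 without control tumor 2). It missed the threshold under 4 of 26 alternatives, with an adjusted p of up to 0.257. The Fcer2a row shares no exon with an opposite gene in the annotation, and its neighbour on the other strand is Trappc5, a gene of vesicle transport.

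The Ms4a1 row had 4.53, 6.71, 2.79, 5.95 and 5.76 CPM in Erbb2-deficient tumors and 16.3, 5.82, 20.6, 10.6 and 14.6 CPM in Erbb2-deficient adjacent tissue. The groups overlapped at adjacent sample 2, and the counts behind these values were 4 to 9 per tumor and 7 to 28 per adjacent sample. The row fell by 1.39 ± 0.50 on the log2 scale (edgeR adjusted p 0.0432, and 0.0333 without control tumor 2). The call was lost under 14 of 25 alternatives, where the adjusted p reached 0.126.

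Ms4a6c, Tctn1 and Palm3, the 3 of the 10 rows with the highest levels in control tumor 2, were lower in every Erbb2-deficient tumor than in every adjacent sample. Ms4a6c had 3.78, 2.98, 0, 5.95 and 18 CPM in Erbb2-deficient tumors, against 84.4, 88.9, 201, 44.6 and 120.4 CPM in Erbb2-deficient adjacent tissue. No tumor reached the lowest adjacent sample, and the count of 0 in tumor 3 allows up to 2.1 CPM (3 counts). The log2 fold change was -4.11 ± 1.57 with an edgeR adjusted p of 0.057, and without control tumor 2 the row fell by 4.09 ± 0.87 with an adjusted p of 0.00111.

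Tctn1 had 86.1, 67.1, 133, 89.3 and 88.6 CPM in Erbb2-deficient tumors, against 411, 284, 929, 230 and 369 CPM in Erbb2-deficient adjacent tissue. The groups did not overlap, and Erbb2-deficient adjacent 3 was above every other adjacent sample of either genotype. The log2 fold change was -2.26 ± 1.03 with an edgeR adjusted p of 0.11; without control tumor 2 it was -2.24 ± 0.50 with an adjusted p of 0.0015. The Hvcn1 row, its partner, had 236 to 308 CPM in Erbb2-deficient tumors and 228 to 354 CPM in Erbb2-deficient adjacent tissue (log2 fold change -0.08 ± 0.18, adjusted p 0.756).

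The Palm3 row had 13.6, 7.46, 16.8, 14.9 and 12.2 CPM in Erbb2-deficient tumors and 40.7, 27.4, 45.2, 18.9 and 28.4 CPM in Erbb2-deficient adjacent tissue. These groups did not overlap. The log2 fold change was -1.30 ± 1.04 with an edgeR adjusted p of 0.371, and -1.29 ± 0.43 with an adjusted p of 0.0236 without control tumor 2.

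In all, 5 of the 10 rows were lower in every Erbb2-deficient tumor than in every adjacent sample (13.6% of all tested rows) and 2 were higher in every tumor (11.9%). Foxp3 and Ccdc22 were among the 3 that overlapped. Foxp3 had 315 to 393 CPM in Erbb2-deficient tumors and 248 to 396 CPM in Erbb2-deficient adjacent tissue, a log2 fold change of 0.08 ± 0.17 (edgeR adjusted p 0.769). Ccdc22 had 4.89 to 11.2 CPM in Erbb2-deficient tumors and 2.65 to 12.7 CPM in Erbb2-deficient adjacent tissue, a log2 fold change of 0.22 ± 0.80 (adjusted p 0.868). Neither was called without control tumor 2.

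**Figure D3:**
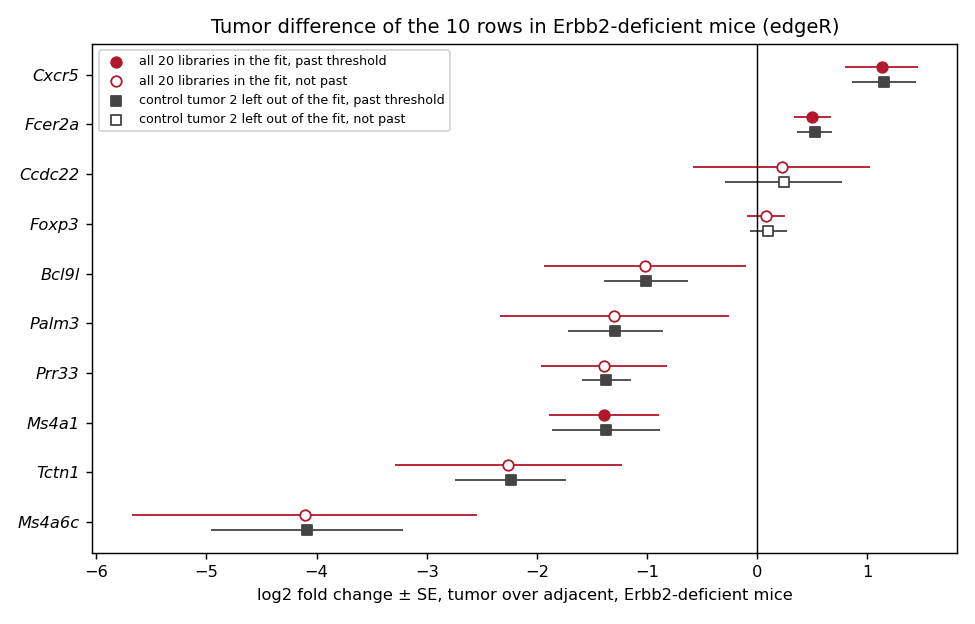
Log2 fold change ± SE of Erbb2-deficient tumor over Erbb2-deficient adjacent tissue for the 10 rows (edgeR), with all 20 libraries in the fit (circles) and without control tumor 2 (squares); filled symbols are past an adjusted p of 0.05. Circle and square lie close together in each row, while the error bars of Bcl9l, Palm3, Prr33, Tctn1 and Ms4a6c are shorter without control tumor 2, where 8 rows are filled, against 3 with all libraries.

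Among all lymphoid marker genes, the same comparison gave 5 rows higher and 2 lower of 17 tested own rows, Cxcr5, Fcer2a and Ms4a1 included. Over all tested rows, 13.0% were called higher and 14.5% lower. The median log2 fold change of the own rows was -0.13, beside -0.06 over all tested rows. Of the 11 tested rows opposite or beside lymphoid genes, 1 was called higher (Rfxank, 0.69 ± 0.18, edgeR adjusted p 0.00763) and 0 lower, with a median of -1.02. Without control tumor 2 the count was 1 higher and 5 lower, the lower ones being Bcl9l, Palm3, Tctn1, Prr33 and Tesk1 (-1.35, adjusted p 0.027). Of 19 MS4A family rows, Ms4a1 and Ms4a6c alone passed the count filter.

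Smooth muscle rows moved with this comparison too. The summed level of 10 smooth muscle marker rows was 161 to 262 CPM in Erbb2-deficient tumors and 1152 to 1459 CPM in Erbb2-deficient adjacent tissue, and all 10 were called lower. Of 5 tested rows opposite smooth muscle genes 4 were called lower, and the highest of them, Pcsk7, had 599.9 to 2857 CPM in those tumors and 19340.4 to 33321 CPM in that adjacent tissue; the exception, Gm11946, was at 0.55 ± 0.37 (adjusted p 0.289). The 18 epithelial rows summed to 437 to 848 CPM in the tumors and 660.2 to 1195 CPM in adjacent tissue. The part of these differences in tissue make-up in the results for the 10 rows was not tested.

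Prr33 was lower in every tumor except control tumor 2 than in any adjacent sample, and its levels in adjacent tissue did not overlap between the genotypes. It had 89.2, 71.6, 37.7, 64.8 and 74.2 CPM in Erbb2-deficient tumors, and 173, 198, 180.2, 175 and 158 CPM in Erbb2-deficient adjacent tissue. In control mice it had 101, 1325, 122, 145 and 89 CPM in tumors and 616, 389.7, 331, 367 and 417 CPM in adjacent tissue. Every Erbb2-deficient adjacent sample lay above every Erbb2-deficient tumor and below every control adjacent sample.

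For tumor over adjacent tissue in Erbb2-deficient mice, the log2 fold change of Prr33 was -1.39 ± 0.57 (edgeR adjusted p 0.0743), and without control tumor 2 it was -1.37 ± 0.22 (adjusted p 7.20e-05). For Erbb2-deficient over control adjacent tissue it was -1.26 ± 0.56 (edgeR adjusted p 0.814), and without control tumor 2 it was -1.29 ± 0.22 (adjusted p 0.0398). That made Prr33 1 of 2 rows called between the genotypes of adjacent tissue without that library, of 7516 tested (0.0266%). The call depends on leaving out a tumor library that is in neither group, and it was not made with only the 2 groups in the fit (-1.24, adjusted p 0.149).

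Smooth muscle rows were looked at in the same adjacent samples, where 0 of 10 were called between the genotypes with or without control tumor 2. Their sum had a median of 1302 CPM (1152 to 1459) in Erbb2-deficient adjacent tissue and 1932 CPM (1151 to 2589) in control adjacent tissue, and the ranges overlapped. The Pcsk7 row, opposite the smooth muscle gene Tagln, had 19340.4 to 33321 CPM in the Erbb2-deficient samples and 36579 to 61836 CPM in the controls (edgeR adjusted p 0.529). Over the 19 libraries without control tumor 2 Pcsk7 was also the tested row most like Prr33 (Spearman's rho 0.95). Their part in the Prr33 difference was not tested.

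With all 20 libraries in the fit, edgeR called 0 of the 10 rows and 0 of 7119 rows (0%) between Erbb2-deficient and control adjacent tissue. At an unadjusted p under 0.05 there were 418 rows (5.87%), among them Cxcr5 and Prr33, and DESeq2 called 5 rows (0.0702%), none of the 10, though it gave no p-value for 5 of them. Cxcr5 had 16.7 to 37.4 CPM in Erbb2-deficient adjacent tissue and 38.3 to 65.2 CPM in control adjacent tissue, with no overlap but a gap of under 1 CPM, and a log2 fold change of -0.71 ± 0.33 (edgeR adjusted p 0.837). Cxcr5 and Prr33 were the 2 of the 10 rows lower in every Erbb2-deficient adjacent sample, against 0.801% of all tested rows.

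The other 8 rows overlapped between the genotypes of adjacent tissue. The spread in both groups was wide in Tctn1 and Ms4a6c. Tctn1 had 230 to 929 CPM in the Erbb2-deficient samples, against 79.6 to 731 CPM in the controls (log2 fold change 0.37 ± 0.98). Ms4a6c had 44.6 to 201 CPM in the Erbb2-deficient samples, against 8.88 to 273 CPM in the controls (0.22 ± 1.32). Within control adjacent tissue, samples 4 and 5 were the 2 highest of their group in Bcl9l, Palm3, Tctn1 and Ms4a6c.

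Comparisons that contain control tumor 2 are given as values only. For control tumor over control adjacent tissue, the log2 fold change of Tctn1 was 2.42 ± 1.03 with control tumor 2 and -1.48 ± 0.52 without it. For Ms4a6c it was 2.71 ± 1.39 with that library and -3.36 ± 0.92 without it. The sign also differed for Palm3 (2.68 with, -1.32 without) and Bcl9l (2.16 with, -1.11 without), while Prr33 was at -0.25 with it and -1.91 without it. Ccdc22 was at 2.54 with it and 0.83 without it.

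Cxcr5 had a log2 fold change of 0.65 ± 0.32 over control adjacent tissue with control tumor 2 and 0.37 ± 0.31 without it. Fcer2a was at 0.62 ± 0.17 with it and 0.55 ± 0.17 without it, and Ms4a1 at -0.84 ± 0.53 with it and -0.76 ± 0.55 without it. Foxp3 was at 0.44 ± 0.18 with it and 0.36 ± 0.18 without it.

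For Erbb2-deficient tumor over control tumor, the log2 fold change of Ms4a6c was -6.60 ± 1.71 with control tumor 2 and -0.52 ± 0.99 without it. Palm3 was at -4.61 with it and -0.62 without it, Tctn1 at -4.30 with it and -0.41 without it, and Bcl9l at -3.28 with it and -0.02 without it. Prr33 was at -2.40 with it and -0.75 ± 0.23 without it, and Foxp3 at -0.53 ± 0.18 with it and -0.47 ± 0.18 without it. Without control tumor 2 the Erbb2-deficient and control tumors overlapped in all 10 rows. The comparisons of control tumors share their libraries, so they are not independent of each other.

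**Figure D4:**
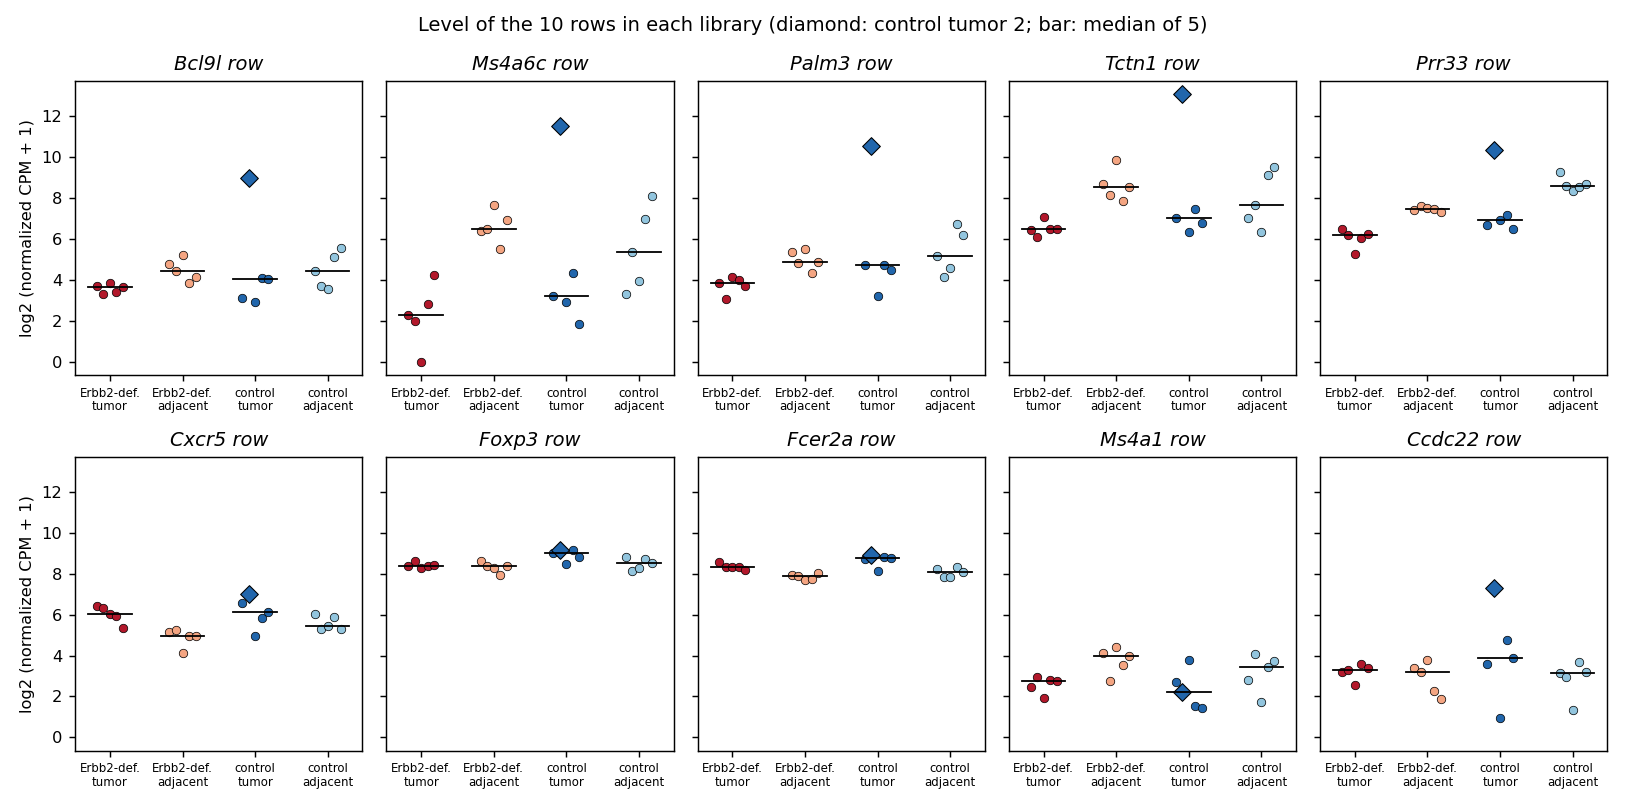
Level of the 10 rows in each library as log2 (normalized CPM + 1), with 5 libraries per group, a bar at the group median and control tumor 2 drawn as a diamond. In the upper row of panels and in Ccdc22 the diamond lies far above the other control tumors, and the Erbb2-deficient tumors of Bcl9l, Ms4a6c, Palm3, Tctn1 and Prr33 lie below the Erbb2-deficient adjacent samples.

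Without control tumor 2, the order of the group medians was the same for Tctn1 and Ms4a6c: Erbb2-deficient tumor lowest, then control tumor, control adjacent and Erbb2-deficient adjacent tissue. Palm3 and Prr33 also began with Erbb2-deficient tumor and control tumor, and had control adjacent tissue highest. In these 4 rows neighbouring groups of the order overlapped, except that in Prr33 Erbb2-deficient adjacent tissue lay clear of the groups on both sides. In the Cxcr5 order Erbb2-deficient adjacent tissue was lowest, then control adjacent tissue, control tumor and Erbb2-deficient tumor, and the first 2 did not overlap. Bcl9l had control tumor lowest, then Erbb2-deficient tumor, control adjacent and Erbb2-deficient adjacent tissue, with overlap between neighbours.

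Over the 19 libraries without control tumor 2, 2 sets of rows varied together in rank. Spearman's rho was 0.87 between Bcl9l and Tctn1, 0.85 between Bcl9l and Palm3, 0.84 between Palm3 and Tctn1, and 0.83 between Ms4a6c and Tctn1. Cxcr5 and Fcer2a had a rho of 0.81, and Foxp3 and Fcer2a 0.71, while Cxcr5 and Foxp3 were less alike at 0.48. Between rows that lie opposite each other, rho was -0.40 for Cxcr5 and Bcl9l and 0.55 for Foxp3 and Ccdc22. The libraries share the 4 groups and the strand of counting, so these values are descriptions.

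**Figure D5:**
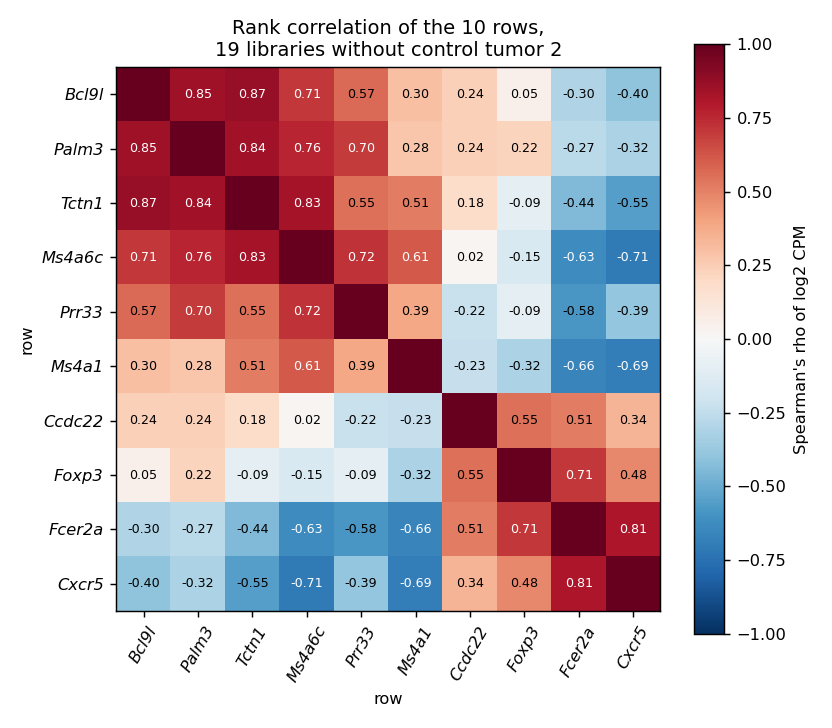
Spearman's rho of log2 CPM between the 10 rows over the 19 libraries without control tumor 2; red is positive and blue negative. Bcl9l, Palm3, Tctn1, Ms4a6c and Prr33 form a block of positive values from 0.55 to 0.87, and Cxcr5 and Fcer2a are negative against each of them.

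The rows most like each of the 10 were ranked among all tested rows. Tctn1 was most like Gm36165 (rho 0.98 over 19 libraries and over 20), a predicted gene. No partner was listed for Gm36165, which may mean only that the annotation used here lacks its name. Ms4a6c was most like Gm15848, which lies beside Fcamr, the gene of a receptor for IgM and IgA (0.93 over 19 libraries). Bcl9l was most like Tbc1d17 (0.91 over 19 libraries), a row opposite Akt1s1 and Il4i1, the second an amino acid oxidase gene of antigen-presenting cells. Ccdc22 was most like Map3k3, beside Limd2 (0.81 over 19 libraries). For Palm3 the Tesk1 row was among the 2 most alike over 20 libraries, with a rho of 0.90.

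Cxcr5 was most like Gm16596 (rho 0.94 over 19 libraries), Fcer2a like Gm32013 (0.96) and Foxp3 like Zfp526 (0.95), which lies beside Dedd2 and Gsk3a, the second a widely expressed kinase gene. Ms4a1 was most like Gm15495 (0.80), a row with a mean of 6.95 counts.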

How the data were processed

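RNA was taken from colorectal tumors and adjacent tissue, and the authors deposited 1 file per library of unnormalized read counts per gene symbol. Per the submitters' processing notes, build mm39 and the tools HTSeq (version 2.0.2), HISAT2 (version 2.2.1), DESeq2 and Trimmomatic were named, with no roles. The strand setting of counting is not given in the sources used here. Between 2.51% and 3.45% of reads lay on genes; the 5 summary rows that hold the rest were left out.

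Members, lists and tests were chosen with earlier results of these data known. Rows were filtered with filterByExpr (edgeR version 4.0.16, R version 4.3.3, minimum count 10) and scaled with TMM. A means model took the 4 groups in all 20 libraries, with robust quasi-likelihood F tests and Benjamini-Hochberg adjustment over 7119 rows at 0.05. Log2 CPM added a prior count of 2. Opposite or neighbouring genes (exon overlap, or within 1000 bases) came from GENCODE M21, another build, used for names only. The step was tested on simulated counts. Named were the 10 rows, their partners, the 4 rows of highest mean count per marker list, the 8 highest opposite lymphoid genes (1 not reported here) and the 3 most alike. The columns of every file were used (0 unused samples). Alternatives were DESeq2 (version 1.42.0), RLE scaling, no filter, 2 groups only, libraries left out and a replicate block.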

Additional observations from a re-analysis of the deposited data

Results flagged for a closer look

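In all, 7 levels lay far from the other libraries of their group, by the ratio of the gap to the group's range, looked at in 40 groups of 5; chance flags about 1 in 20 groups when rows are not selected, and these rows were selected on control tumor 2, so its values are a description. Control tumor 2 gave 6 of them: Bcl9l at 501 CPM (others 6.44 to 16.2), Ccdc22 at 158 CPM (0.92 to 25.7), Ms4a6c at 2993 CPM (2.54 to 19), Palm3 at 1521 CPM (8.28 to 25.7), Tctn1 at 8667 CPM (79.1 to 178) and Prr33 at 1325 CPM (89 to 145). The seventh was Tctn1 in Erbb2-deficient adjacent 3, at 929 CPM, against 230 to 411 CPM in the other Erbb2-deficient adjacent samples. The interaction of genotype and tissue passed the threshold in 0 of 7119 rows by edgeR (290 at an unadjusted p under 0.05) and was not run with another tool.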

How the results depend on the processing

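For Erbb2-deficient tumor over Erbb2-deficient adjacent tissue, 1959 rows were called, 2939 without control tumors 2 and 3, and 1573 to 2719 with each library left out in turn. Of the 10 rows 3 were called, 1 with no count filter, 7 of 9 tested with only the 2 groups, 8 without control tumors 2 and 3, and 1 to 8 with each library left out. It was 8 without control tumor 2 and 1 without Erbb2-deficient tumor 1, Erbb2-deficient adjacent 3 or Erbb2-deficient adjacent 4. For Erbb2-deficient over control adjacent tissue, 0 rows were called, 1 with no count filter, 5 with DESeq2, 1 without control tumors 2 and 3, and 0 to 2 with each library left out. Of the 10 rows 0 were called, 1 (Prr33) without control tumors 2 and 3, and 0 to 1 with each library left out. For control tumor over control adjacent tissue, 1540 rows were called, 593 with only the 2 groups, 2544 without control tumors 2 and 3, and 1188 to 2127 with each library left out. For Erbb2-deficient over control tumor, 0 rows were called, 26 with DESeq2, and 0 with each library left out. Apart from fewer rows or libraries, the cause was not tested. DESeq2 gave no p-value for Bcl9l, Ms4a6c, Palm3, Tctn1 and Prr33. With a replicate block 4 of the 10 rows were called in the first comparison, with Ms4a6c and Prr33 in and Ms4a1 out (adjusted p 0.126), of 1989 rows in all. Equal numbers correlated above 0.1 in 3 of 5 pairs between tumor and adjacent tissue of either genotype. Between the genotypes, it was 3 of 5 for adjacent tissue and 0 of 5 for tumors. These correlations do not settle whether equal numbers share a mouse, and as pairing is not stated they were not taken as pairs. Depth limits Ms4a1, Ccdc22, Ms4a6c, Bcl9l and Palm3, with under 10 counts in some libraries. Group means moved by under 1 SD in 39 of 40 cases when CPM was taken over all gene rows.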
